A study of Mus musculus with 90 samples.

Results

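The 9 genes described here answer changes of temperature and protein folding, and were followed in mouse brain after a social challenge: the heat shock genes Hspa1a, Hspa1b, Hspa8, Hspa5, Hsp90aa1, Hsph1 and Dnajb1, and the cold-inducible genes Cirbp and Rbm3. They are the 9 rows, of 37991 gene identifiers in the count table, whose mouse Ensembl identifier carries 1 of these symbols, and each of the 9 was counted in all 90 libraries and passed the filter on low counts in every region. In the order named, their identifiers are ENSMUSG00000091971, ENSMUSG00000090877, ENSMUSG00000015656, ENSMUSG00000026864, ENSMUSG00000021270, ENSMUSG00000029657, ENSMUSG00000005483, ENSMUSG00000045193 and ENSMUSG00000031167. Heat shock proteins are chaperones, which hold, refold or deliver other proteins. When unfolded protein builds up in the cytosol, the factor HSF1 is released from chaperones and switches on its target genes, among them Hspa1a, Hspa1b, Hsph1, Dnajb1 and Hsp90aa1. Hspa5 answers unfolded protein in the endoplasmic reticulum instead. Cirbp and Rbm3 encode RNA-binding proteins that accumulate on mild cooling and recede on warming, and in the brain both are known to track the daily rhythm of body temperature. Body temperature itself was not analysed here.

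All animals were male C57BL/6J residents that had been housed with a C57BL/6J female. Each met, for 5 min, a mesh cage holding either an unfamiliar male BALB/cJ mouse or a paper cup. Residents that met the mouse are called intruder animals here, and those that met the cup controls. Amygdala, frontal cortex and hypothalamus were taken 30, 60 or 120 min later and sequenced as stranded poly(A) libraries. Groups had 5 libraries, except 3 hypothalamus controls at 30 min and 6 controls and 6 intruder libraries of frontal cortex at 120 min. The labels give 32 animals, 28 of them with a library from each of the 3 regions, so the regions are not independent samples, and animals are named by time, condition and number.

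Reads assigned to genes ran from 38.6 to 58.86 M per library. The least abundant value of any of the 9 genes rested on 301 reads, so counting error was smaller than the spread between animals. Summed markers of hypothalamus were 666.2 to 1768 CPM in hypothalamus and at most 85.2 CPM elsewhere, and those of cortex 1318 to 1897 CPM in frontal cortex and at most 1287 CPM elsewhere. Amygdala markers, 250.8 to 549.9 CPM in amygdala, overlapped the 181.2 to 286.1 CPM of frontal cortex. All libraries at 30 min carry another header tag (ISO) than those at 60 and 120 min (CERV), with no meaning given, so the tag and the step from 30 min to later times cannot be told apart.

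Hspa1a and Hspa1b are neighbouring, nearly identical genes on chromosome 17, and their start regions are shown because they bear on how far their values can be told apart. Both encode stress-inducible Hsp70 and lie on the minus strand. The 150 bases before each start, from RefSeq on GRCm38.p6, lie at chr17:34972157-34972306 for Hspa1a and chr17:34959239-34959388 for Hspa1b. Capitals mark a pair of heat shock units 104 to 97 bases before the start.
Hspa1a: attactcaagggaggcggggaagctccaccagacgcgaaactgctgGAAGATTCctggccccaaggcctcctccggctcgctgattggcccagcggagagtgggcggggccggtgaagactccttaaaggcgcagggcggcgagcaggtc
Hspa1b: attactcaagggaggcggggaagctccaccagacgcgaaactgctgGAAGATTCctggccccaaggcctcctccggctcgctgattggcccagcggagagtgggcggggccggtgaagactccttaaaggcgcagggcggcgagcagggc
These stretches are identical at 149 of 150 bases. Of the 50-base windows of the Hspa1a transcript, 58.8% also occur in Hspa1b, and the count table keeps alignments that are not unique in a row of their own, outside the genes. The level of each gene is therefore uncertain.

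A window of 250 bases before to 50 after the start was held for 6 of the 9 genes, and stretches are shown for Hsph1, Hspa5 and Cirbp because they hold the motifs sought. Hsph1 lies on the minus strand of chromosome 5 (chr5:149636337-149636416 for the 80 bases before the start, chr5:149636288-149636317 for bases 20 to 49 after it). Hspa5 lies on the plus strand of chromosome 2 (chr2:34771970-34772089, the last 120 bases before the start) and Cirbp on the plus strand of chromosome 10 (chr10:80167589-80167708, 250 to 131 bases before the start). Capitals mark a pair of heat shock units and a full heat shock element in Hsph1, the endoplasmic reticulum stress element in Hspa5 and the mild-cold response element in Cirbp.
Hsph1 before the start: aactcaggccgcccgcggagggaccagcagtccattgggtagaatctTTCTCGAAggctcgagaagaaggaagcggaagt
Hsph1 after the start: gagtaaaatgctgcagaTTCTGGAAAGTTC
Hspa5: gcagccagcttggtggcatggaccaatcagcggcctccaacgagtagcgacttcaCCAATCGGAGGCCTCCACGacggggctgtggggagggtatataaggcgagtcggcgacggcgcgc
Cirbp: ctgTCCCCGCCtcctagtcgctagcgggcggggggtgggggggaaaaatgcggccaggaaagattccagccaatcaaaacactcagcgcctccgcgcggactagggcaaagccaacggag

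Motifs were sought on both strands of all 32851 windows of the same length. The heat shock element, 3 alternating units of GAA or TTC with any 2 bases between neighbours, was in 0.603% of windows and, among these genes, in Hsph1. A pair of such units, which every full element also contains, was in 15.1% of windows, among them those of Hspa1a, Hspa1b and Hsph1. The endoplasmic reticulum stress element, CCAAT then any 9 bases then CCACG, was in 0.119% of windows, among them that of Hspa5. The mild-cold response element TCCCCGCC was in 5.38% of windows, among them that of Cirbp and, on the opposite strand, those of Hspa1a, Hspa1b and Dnajb1. A match describes letters only, and no binding was measured.

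Levels are given as CPM, a gene's counts scaled to the TMM-adjusted size of its library. CPM is not corrected for gene length, so it was compared within a gene and not between genes. Libraries were scaled within their region, except where levels are set across regions, as in the spans that follow. There all 90 were scaled together, so a library's values on each scaling differ. Hspa1a and Hspa1b varied most between libraries, from 6.47 to 41.9 CPM and from 7.03 to 47.2 CPM, a span of 6.48 and 6.71 times. Their median coefficient of variation within a group was 26.1% and 28.1%, against at most 11.7% for the other genes. Narrower spans were seen for Hspa8 (1.6 times, 1012 to 1620 CPM), the constitutive Hsc70 of the cytosol, and for Hsp90aa1 (1.84 times, 718.3 to 1324 CPM), the stress-inducible Hsp90 of the cytosol. Hsph1, an Hsp110 that recharges Hsp70 with nucleotide, spanned 336.6 to 696.2 CPM, and Dnajb1, an Hsp40 that hands clients to Hsp70, 66.4 to 161.1 CPM. Hspa5, the Hsp70 of the endoplasmic reticulum (BiP), spanned 323.7 to 713.7 CPM, Cirbp 33.5 to 81.8 CPM and Rbm3 62.5 to 124.6 CPM.

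**Figure D1:**
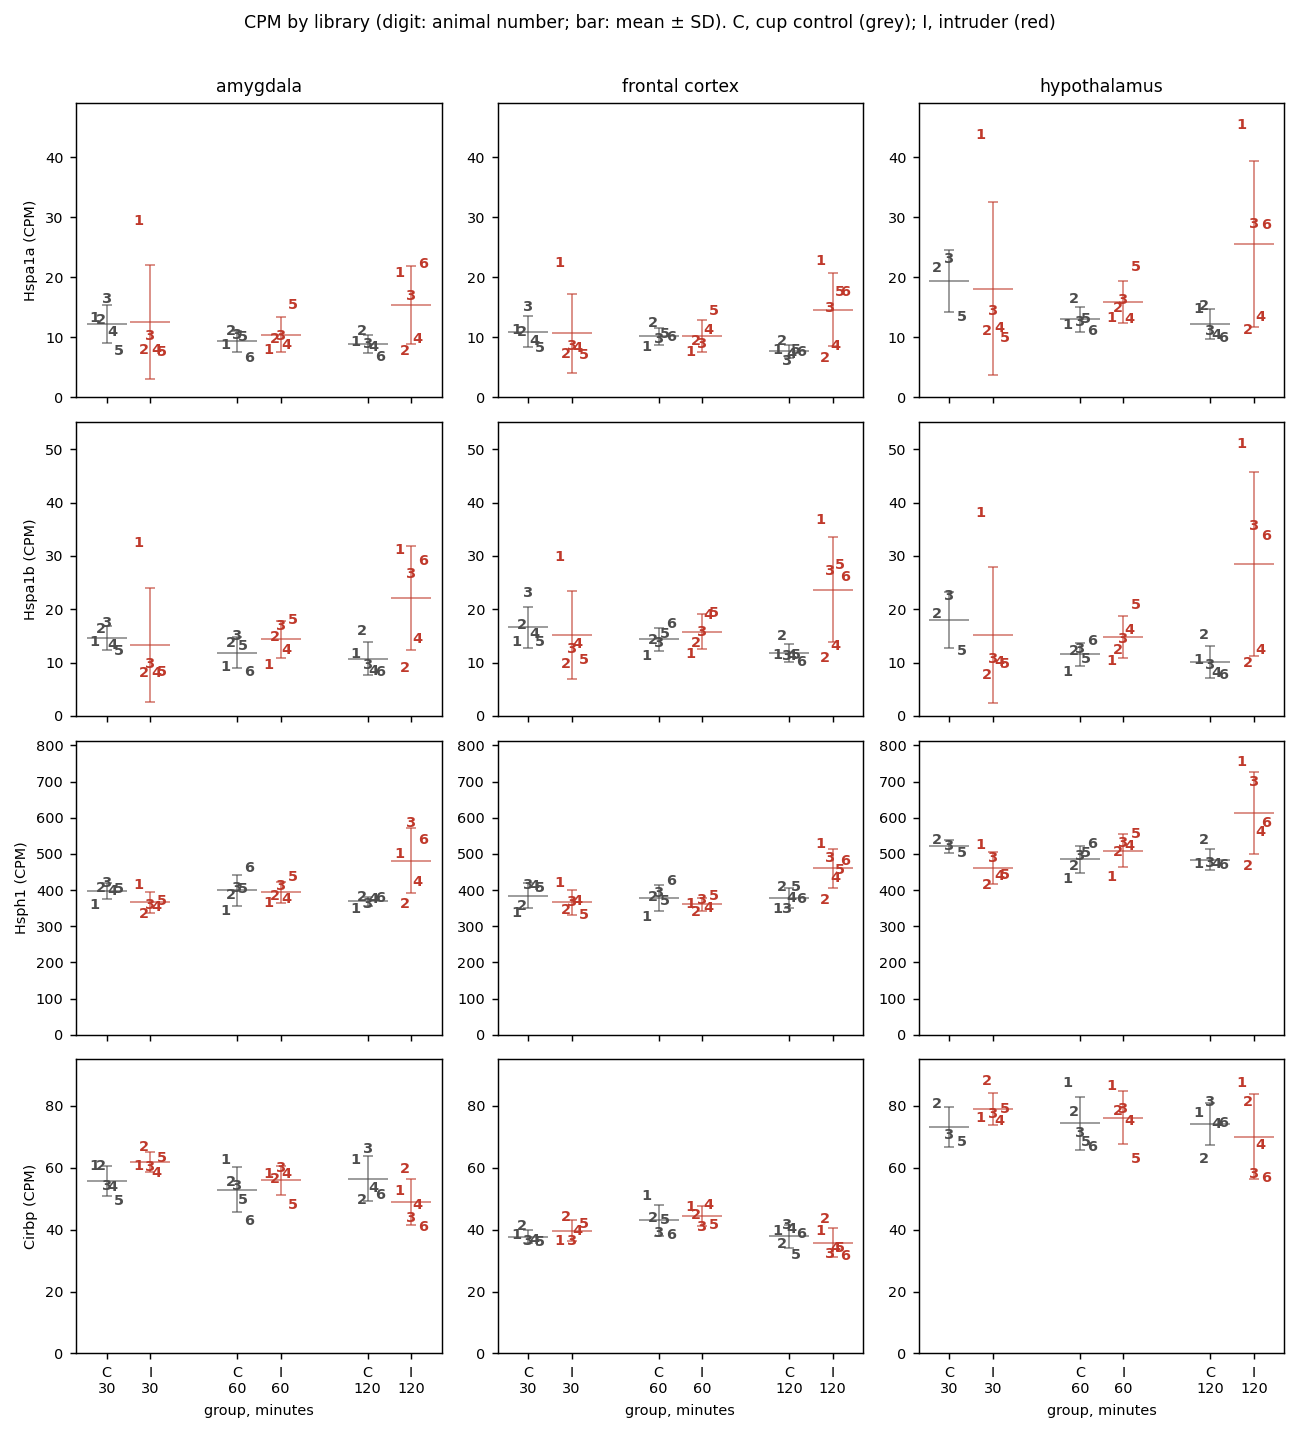
CPM of Hspa1a, Hspa1b, Hsph1 and Cirbp (rows) in 3 regions (columns), with 1 digit per library giving the animal's number, grey for cup controls (C), red for intruder animals (I), and bars for the mean and SD, at 30, 60 and 120 min. Intruder animals 1, 3 and 6 stand above the controls at 120 min for the heat shock genes, intruder animal 2 does not, and intruder animal 1 at 30 min stands alone for Hspa1a and Hspa1b in each region.

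At 120 min the 2 inducible Hsp70 genes were high in most, not all, intruder animals, in all 3 regions. In amygdala, Hspa1a read 20.7, 7.74, 16.9, 9.65 and 22.2 CPM in intruder animals 1, 2, 3, 4 and 6, and 9.17, 10.96, 8.94, 8.44 and 6.69 CPM in controls 1, 2, 3, 4 and 6. Animals 1, 3 and 6 were above every control and animal 2 below 4 of the 5, so the groups overlapped. On the log2 scale the difference came to 0.81 ± 0.32 (standard error; edgeR adjusted p 0.23). In hypothalamus Hspa1a was 45.4, 11.2, 28.9, 13.5 and 28.7 CPM in the same intruder animals and 14.7, 15.2, 11.1, 10.4 and 9.86 CPM in the controls. Again animals 1, 3 and 6 were the high ones (log2 difference 1.06 ± 0.35, edgeR adjusted p 0.285). In frontal cortex the lowest, median and highest of 6 intruder libraries were 6.49, 16.2 and 22.7 CPM, against 6.10, 7.69 and 9.41 CPM in 6 controls. There intruder animals 1, 3, 5 and 6 lay above all controls, and the log2 difference was 0.94 ± 0.26 (edgeR adjusted p 0.44).

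Hspa1b followed its neighbour. In amygdala its values were 31.0, 8.96, 26.7, 14.5 and 29.1 CPM in intruder animals 1, 2, 3, 4 and 6 and 11.6, 15.9, 9.63, 8.42 and 8.25 CPM in controls. In hypothalamus they were 51.0, 9.84, 35.6, 12.4 and 33.7 CPM against 10.4, 15.1, 9.59, 8.05 and 7.61 CPM. Intruder animals 2 and 4 lay within the control range in both regions while animals 1, 3 and 6 were all above it. In frontal cortex the lowest, median and highest were 10.8, 26.6 and 36.7 CPM in intruder libraries and 10.2, 11.4 and 15.1 CPM in controls. In amygdala, frontal cortex and hypothalamus the log2 differences were 1.03 ± 0.34, 1.01 ± 0.24 and 1.49 ± 0.40 (edgeR adjusted p 0.146, 0.4 and 0.171). With the reads of both genes summed to 1 feature, the log2 differences were 0.94, 0.98 and 1.27 (edgeR adjusted p 0.166, 0.4 and 0.21).

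Hsph1 was the 1 gene of the 9 that passed the test at 120 min, in amygdala. Its values there were 498.9, 361.3, 586, 421.7 and 538.9 CPM in intruder animals 1, 2, 3, 4 and 6 and 349.1, 379.6, 362.4, 374.1 and 377.9 CPM in controls. In all, 4 of 5 intruder animals lay above all controls and animal 2 lay inside their range. The log2 difference was 0.38 ± 0.09, a 1.31-fold rise, with an edgeR adjusted p of 0.0471. The call was near the threshold: leaving out each of the region's 30 libraries in turn gave adjusted p of 0.0115 to 0.188, and the call held in 6 of the 30 fits. It was also lost under limma voom (adjusted p 0.0644), with no filter on low counts (0.0766) and in a fit of the 2 groups alone (0.234). With the library index as a block the log2 difference was 0.55, but intruder animal 6 alone shared an index with the controls, so that value rests on its library. In hypothalamus Hsph1 read 753.2, 466.6, 699.8, 560.9 and 586.2 CPM against 471.5, 537.3, 473.8, 471.5 and 468.6 CPM, with the same animal 2 at the bottom. In frontal cortex the lowest, median and highest were 371.4, 468.6 and 526.7 CPM against 347.4, 376.3 and 409.8 CPM. The log2 differences were 0.34 ± 0.09 and 0.28 ± 0.07, with edgeR adjusted p of 0.176 and 0.4.

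Dnajb1 showed the same animals at the top. In hypothalamus it read 174.3, 85.3, 150.9, 96.5 and 131.9 CPM in intruder animals 1, 2, 3, 4 and 6 and 93.5, 88.6, 77.1, 80.9 and 86.4 CPM in controls. In amygdala the values were 116.2, 69.5, 105.6, 75.7 and 103 CPM against 76.8, 86.3, 70.6, 70.6 and 66.1 CPM. Animals 1, 3 and 6 exceeded all controls in both regions, animal 4 did so in hypothalamus alone, and animal 2 in neither. The frontal cortex libraries ran over 68.4, 98.9 and 110.8 CPM (lowest, median and highest) in intruder animals and 67.4, 74.9 and 83.0 CPM in controls. Taking amygdala, frontal cortex and hypothalamus in turn, the log2 differences were 0.34 ± 0.13, 0.31 ± 0.09 and 0.58 ± 0.17 (edgeR adjusted p 0.203, 0.44 and 0.209).

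The abundant cytosolic chaperones differed by less. Hsp90aa1 read 921.7, 841, 1032, 864.3 and 983.7 CPM in amygdala of intruder animals 1, 2, 3, 4 and 6, against 782.9 to 855 CPM in controls, so animal 2 alone lay in the control range. In hypothalamus it was 1433, 1009, 1280, 1158 and 1270 CPM against 1001 to 1088 CPM. In frontal cortex the lowest, median and highest were 792.4, 858.3 and 967.1 CPM against 676.7, 785.8 and 811.5 CPM. Its log2 differences were 0.17 ± 0.06, 0.17 ± 0.05 and 0.25 ± 0.07 in amygdala, frontal cortex and hypothalamus. Hspa8 was 1235, 1145, 1438, 1251 and 1385 CPM in amygdala of the intruder animals against 1089 to 1217 CPM in controls, and 1753, 1262, 1497, 1485 and 1472 CPM in hypothalamus against 1259 to 1355 CPM. In both regions animal 2 alone was inside the control range. Its log2 differences were 0.14 ± 0.06, 0.12 ± 0.05 and 0.20 ± 0.06, and neither gene passed the test in any region (edgeR adjusted p 0.148 to 0.895).

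Hspa5 read 544.9, 412.2, 602.1, 493 and 575.3 CPM in amygdala of intruder animals 1, 2, 3, 4 and 6, and 402.7, 443.7, 424.2, 418.1 and 377.6 CPM in controls. In all, 4 of 5 intruder animals were above all controls. The log2 difference was 0.35 ± 0.10 (edgeR adjusted p 0.101, with DESeq2 0.0362). In frontal cortex, where the lowest, median and highest were 354.6, 482.4 and 550.4 CPM against 310.6, 351.8 and 425.2 CPM, it was 0.40 ± 0.09 (edgeR adjusted p 0.4). In hypothalamus the values were 772.1, 526.3, 647.7, 581.5 and 591.2 CPM against 504.5 to 586.5 CPM, so animals 2 and 4 lay in the control range, and the log2 difference was 0.18 ± 0.08 (edgeR adjusted p 0.401).

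The cold-inducible genes did not stand on the same side as the heat shock genes. Cirbp read 52.6, 59.6, 43.8, 48.0 and 40.8 CPM in amygdala of intruder animals 1, 2, 3, 4 and 6 and 62.4, 49.5, 65.9, 53.4 and 51.2 CPM in controls. Animals 3, 4 and 6 lay below all controls and animal 2 within their range. The log2 difference was -0.21 ± 0.10 (edgeR adjusted p 0.322), against -0.08 ± 0.08 in frontal cortex and -0.08 ± 0.10 in hypothalamus. In hypothalamus the 5 intruder values, 87.4, 81.2, 57.9, 67.2 and 56.8 CPM, spread on both sides of the 63.0 to 81.2 CPM of the controls. Rbm3 gave 66.2 to 87.1 CPM in amygdala of intruder animals against 74.3 to 94.3 CPM, and 69.7 to 92.5 CPM in hypothalamus against 74.0 to 83.9 CPM. Its groups overlapped in each region, with log2 differences of -0.06 ± 0.10, -0.01 ± 0.06 and -0.00 ± 0.08 (edgeR adjusted p 0.8 to 0.999).

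**Figure D2:**
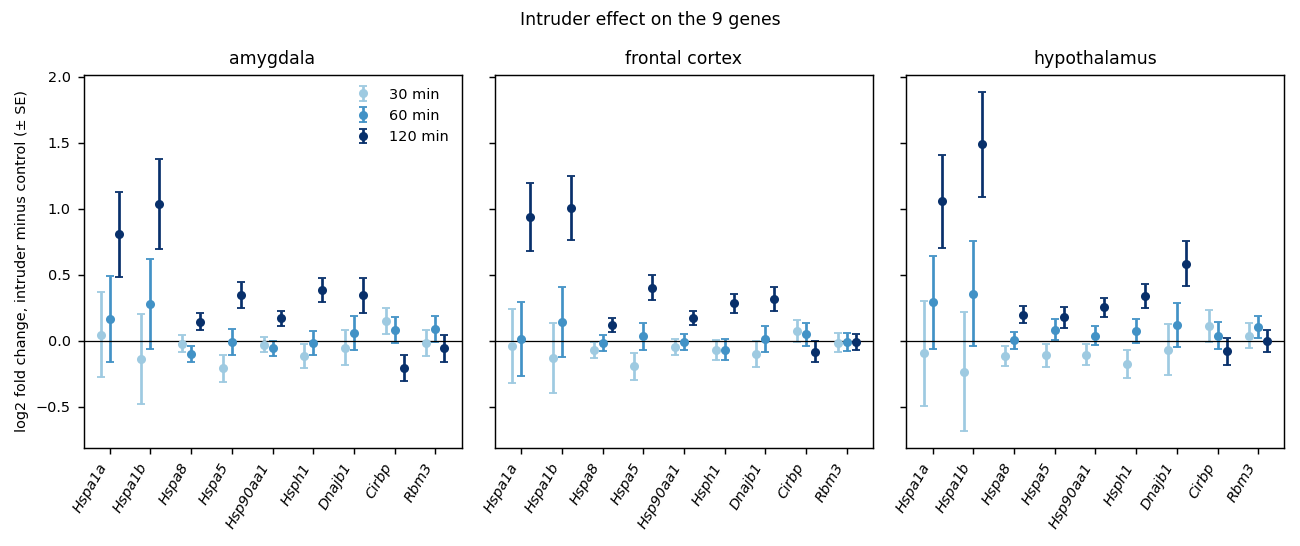
Log2 fold change of each of the 9 genes, intruder minus control, with its standard error, in 3 regions at 30 (pale), 60 (mid) and 120 min (dark). At 120 min all 7 heat shock genes lie above 0 in each region, from 0.12 for Hspa8 in frontal cortex to 1.49 for Hspa1b in hypothalamus, and Cirbp and Rbm3 lie at or below 0.

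Over the 9 genes, then, edgeR's quasi-likelihood test with Benjamini-Hochberg adjustment over all genes called 1 gene at 120 min in amygdala, where it called 0.538% of all genes tested. It called 0 in hypothalamus, where it called 0.192% of genes, and 0 in frontal cortex, where it called 0% of genes. The 7 heat shock genes nevertheless had an unadjusted p below 0.05 in every region at 120 min, as did 15.1%, 5.34% and 11.5% of all genes tested (amygdala, frontal cortex, hypothalamus). Their median log2 difference with Cirbp and Rbm3 included was 0.34, 0.28 and 0.25, against 0.000718, -0.00205 and 0.00252 over all genes. The groups overlapped for each of the 7, where 1.55%, 0.140% and 0.402% of all genes stood wholly higher. DESeq2 called 2 of the 9 in amygdala (Hspa5 and Hsph1) and 0 in the other regions, and limma voom called 0 in each region. The intruder effect did not pass a test of difference between regions for any of the 9 genes at any time. Without the animal as a block, edgeR adjusted p was at least 0.809, edgeR, DESeq2 and limma voom called 0, and by edgeR 0 had an unadjusted p below 0.05. Over all genes that edgeR fit called 0%, 0% and 0.0109% at 30, 60 and 120 min, with 2.42%, 3.15% and 7.53% below the unadjusted threshold. With the animal as a block edgeR also called 0 of the 9, with the smallest adjusted p at 0.384 (Hspa5 at 120 min). In that fit the unadjusted edgeR p was below 0.05 for Hspa5 at 30 min (0.0428). At 120 min it was so for Hspa5 (0.000671), Hspa1b (0.0134) and Dnajb1 (0.0216).

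One animal bore on these tests. Without the frontal cortex library of intruder animal 2 of 120 min, edgeR called 4 of the 9 genes at 120 min: Hspa1b (log2 difference 1.16, adjusted p 0.0356), Hspa5 (0.47, 0.0341), Hsph1 (0.34, 0.0356) and Dnajb1 (0.39, 0.0409). Without its hypothalamus library 2 were called, Hsp90aa1 (0.32, adjusted p 0.0329) and Hsph1 (0.42, 0.0273). Without its amygdala library 2 were called, Hspa5 (0.42, 0.0486) and Hsph1 (0.47, 0.0115). Over all genes these fits called 20, 53 and 95, against 0, 34 and 93 with the library kept, so in frontal cortex and hypothalamus calls became more frequent among other genes too. The animal was singled out after its low values had been seen, and it is kept in all other values given here.

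At the earlier times no gene of the 9 was called in any region by edgeR, DESeq2 or limma voom, and edgeR called 0% of all genes at 30 and at 60 min. By edgeR 1, 0 and 0 of the 9 had an unadjusted p below 0.05 at 30 min in amygdala, frontal cortex and hypothalamus (2.74%, 6.28% and 1.92% of all genes), and 0 in each region at 60 min (7.13%, 2.54% and 2.22%). The log2 differences at 60 min ran from -0.10 to 0.36 for the heat shock genes. At 30 min 1 of 7 heat shock genes was above 0 in amygdala and 0 of 7 in the other regions, and Hspa5 was the 1 gene below the unadjusted threshold. Hspa5 then read 358.9, 332.8, 384.5, 383.5 and 411.3 CPM in intruder animals 1 to 5 and 356.3, 453.5, 439.9, 450.9 and 461.9 CPM in controls 1 to 5. Controls 2 to 5 were above every intruder animal, and the log2 difference was -0.21 ± 0.10 (edgeR adjusted p 0.9997). In hypothalamus, with 3 controls, all 5 intruder animals lay below all controls for Hspa8 (1187 to 1319 against 1338 to 1429 CPM) and Hspa5 (468.1 to 527.5 against 527.6 to 564.1 CPM), as did 1.58% of all genes.

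A single animal carried the 30 min values of the inducible Hsp70 genes. Hspa1a read 29.4, 7.83, 10.2, 7.83 and 7.53 CPM in amygdala of intruder animals 1 to 5, and 7.67 to 16.3 CPM in controls. Animal 1 was equally apart in frontal cortex (22.3 CPM against 7.01 to 8.56 CPM in the other 4) and hypothalamus (43.7 against 9.81 to 14.4 CPM). For Hspa1b animal 1 was at 32.4, 29.8 and 38.0 CPM in amygdala, frontal cortex and hypothalamus. The other 4 intruder animals lay below every control for this gene, at 8.01 to 9.71 against 12.1 to 17.5 CPM in amygdala. Their frontal cortex values were 9.77 to 13.5 against 13.8 to 23.0 CPM, and in hypothalamus 7.61 to 10.7 against 12.2 to 22.5 CPM.

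The difference of the intruder effect between the times did not pass the test for any of the 9 genes. The smallest edgeR adjusted p were 0.184 in amygdala and 0.582 in hypothalamus, both for Hsph1, and 0.675 in frontal cortex, for Hspa5. At an unadjusted p below 0.05 stood 5, 6 and 5 of the 9 genes in amygdala, frontal cortex and hypothalamus, against 12.1%, 4.45% and 5.67% of all genes, of which 0%, 0% and 0.0113% were called. DESeq2 called 1, Hsph1 in amygdala (adjusted p 0.0388), and limma voom 0. The stronger reading at 120 min than at 30 or 60 min is therefore a description of the values.

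Since the 3 libraries of an animal share that animal, the log2(CPM + 1) of its regions was also averaged to 1 value per animal, a choice made after the data had been seen. At 120 min, with 5 intruder animals and 5 controls, the difference was 0.73 for Hspa1a, 0.95 for Hspa1b, 0.16 for Hspa8, 0.31 for Hspa5, 0.20 for Hsp90aa1, 0.33 for Hsph1 and 0.38 for Dnajb1. The exact permutation p of these were 0.0952, 0.0714, 0.0317, 0.0317, 0.0238, 0.0317 and 0.0794 (two-sided, smallest possible 0.00794), and the smallest after adjustment over 27 tests was 0.171. In all, 4 of 5 intruder animals were above all controls for Hspa8, Hspa5, Hsp90aa1 and Hsph1, and 3 of 5 for Hspa1a, Hspa1b and Dnajb1. Cirbp differed by -0.14 (exact permutation p 0.246, 3 of 5 intruder animals below all controls) and Rbm3 by -0.03 (exact permutation p 0.651). At 30 min all 5 intruder animals were below all 3 controls for Hspa5, a difference of -0.21 whose exact permutation p of 0.0179 is the smallest that 5 against 3 animals can give (adjusted p 0.171).

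**Figure D3:**
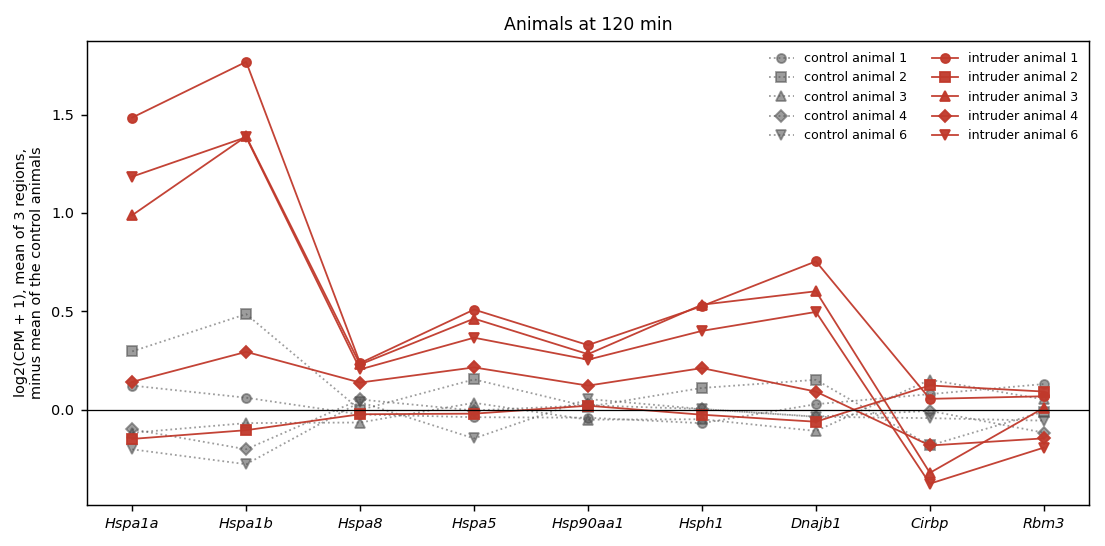
Mean over the 3 regions of log2(CPM + 1) at 120 min, minus the mean of the 5 control animals, for the 9 genes (x axis), with 1 line per animal, grey dotted for controls and red for intruder animals. Intruder animals 1, 3 and 6 rise above the rest for Hspa1a, Hspa1b and Dnajb1, animals 2 and 4 lie among the controls for these 3, and for Cirbp animals 3 and 6 are lowest.

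How an animal stood within its group was shared by its regions. For each gene, a library's deviation from the mean of its region, time and condition was set against the deviation of the same animal in another region, over 28 animals. This relation was chosen after the data had been seen, and the p values come from 100000 permutations of animals within groups, adjusted over 27 relations (3 pairs of regions for each of 9 genes). For Hspa1a, Pearson's r was 0.91, 0.95 and 0.94 for the pairs amygdala and frontal cortex, amygdala and hypothalamus, and frontal cortex and hypothalamus, with Spearman's rho of 0.86, 0.96 and 0.86 (adjusted permutation p at most 9e-05). Without the 2 animals farthest from the median, r was 0.85, 0.91 and 0.89, so the relation did not rest on those animals. Within the 13 control animals alone r was 0.70, 0.88 and 0.79.

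The other genes also gave positive r for each pair, lower for some in controls alone. In the same order of pairs, r was 0.86, 0.91 and 0.97 for Hspa1b, 0.88, 0.77 and 0.83 for Hspa5, 0.80, 0.80 and 0.76 for Hsph1 and 0.75, 0.83 and 0.84 for Dnajb1. Spearman's rho for these 4 genes ran from 0.64 to 0.96, and the largest adjusted permutation p among them was 0.00162. In controls alone r was 0.51, 0.68 and 0.89 for Hspa1b, 0.84, 0.88 and 0.88 for Hspa5, 0.84, 0.77 and 0.65 for Hsph1 and 0.46, 0.54 and 0.52 for Dnajb1. The Hspa1b and Dnajb1 values were lower there in each pair, as were those of Hspa1a and Hsp90aa1. The cold-inducible genes gave r of 0.77, 0.86 and 0.82 for Cirbp (rho 0.74, 0.89 and 0.83) and 0.69, 0.78 and 0.67 for Rbm3 (rho 0.72, 0.81 and 0.78). In the 13 controls alone Cirbp gave 0.77, 0.87 and 0.88 and Rbm3 0.71, 0.76 and 0.71. Hspa8 gave r of 0.63, 0.62 and 0.60 (rho 0.65, 0.62 and 0.61) and Hsp90aa1 0.44, 0.52 and 0.63 (rho 0.45, 0.52 and 0.59), with adjusted permutation p up to 0.041. In controls r was 0.61, 0.84 and 0.53 for Hspa8 and 0.40, 0.34 and 0.58 for Hsp90aa1. For Hspa8 the values between amygdala and the other regions were lower, 0.49 and 0.44, without the 2 farthest animals.

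Few genes shared their deviations between regions to this extent. Averaged over the 3 pairs of regions, Hspa1a (0.93) ranked 5th and Hspa1b (0.91) 7th of 13590 genes with at least 1 CPM in each region, where the median was 0.12 and the 95th percentile 0.424, and 50 genes exceeded 0.7. Hspa5 ranked 19th, Cirbp 22nd, Dnajb1 23rd, Hsph1 29th, Rbm3 46th, Hspa8 101st and Hsp90aa1 212th. The 3 libraries of an animal carried different index pairs in all 28 animals, with different first indexes, but in 6 animals 2 of them had the same second index. What sets an animal's shared level was not tested.

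**Figure D4:**
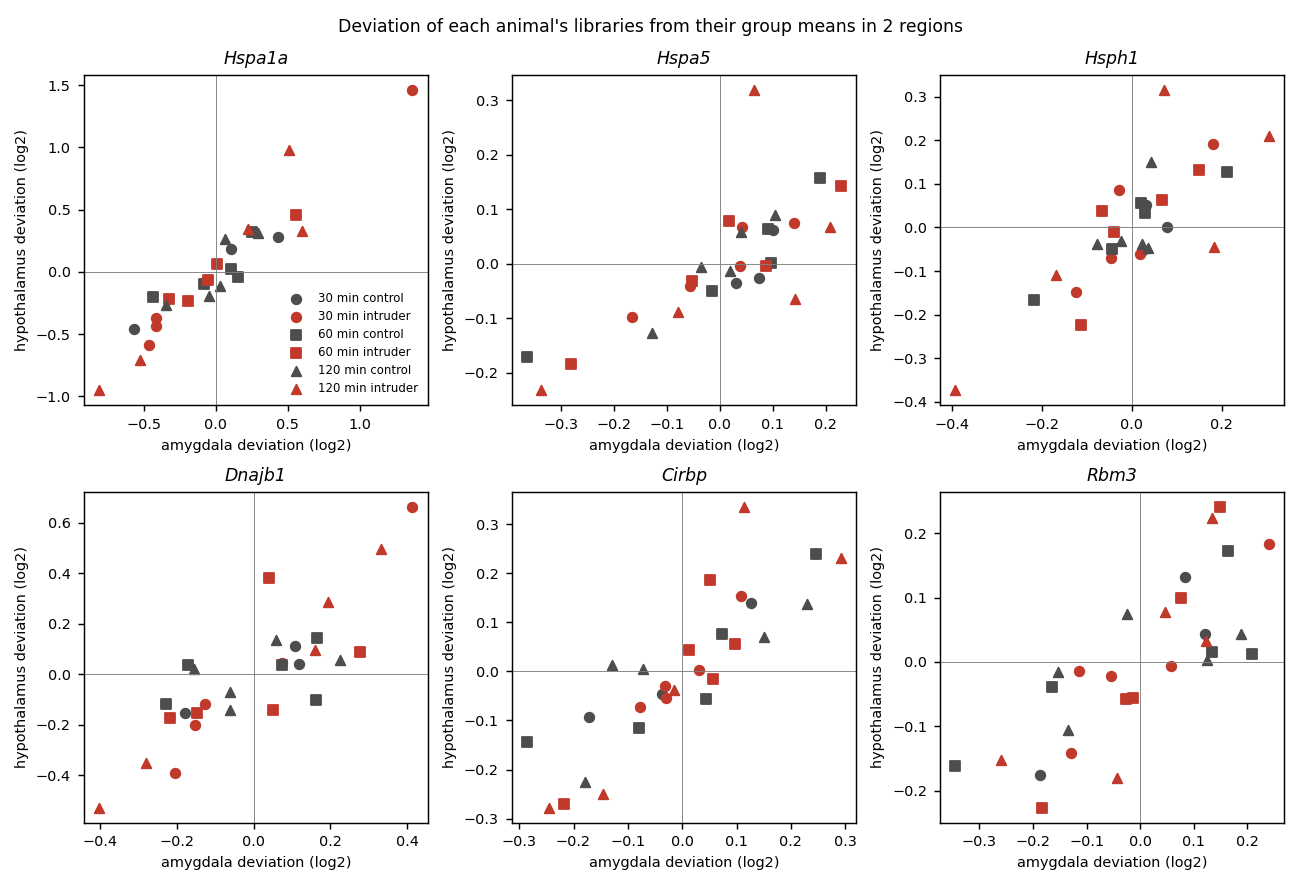
Deviation of an animal's amygdala library (x axis) and hypothalamus library (y axis) from the mean of its group, in log2(CPM + 1), for 6 genes and 28 animals, with symbols for time and colours for condition. Points run from lower left to upper right for each gene, with r of 0.95 for Hspa1a, 0.77 for Hspa5, 0.80 for Hsph1, 0.83 for Dnajb1, 0.86 for Cirbp and 0.78 for Rbm3.

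The genes also differed in which of the others they followed from animal to animal. These are descriptions over 28 animals after averaging the regions and subtracting group means. Dnajb1 ran with Hspa1a (r 0.94) and Hspa1b (r 0.94), and did so within the 13 controls too (0.90 and 0.88). Among Hspa8, Hsp90aa1 and Hsph1, r was 0.89 between Hspa8 and Hsp90aa1, 0.88 between Hsp90aa1 and Hsph1 and 0.82 between Hspa8 and Hsph1 (0.89, 0.82 and 0.82 in controls). Hsph1 also ran with Dnajb1 (0.85), Hspa1b (0.84) and Hspa5 (0.81) over all animals, with 0.44, 0.54 and 0.83 in controls, so these genes did not fall into separate sets. Hspa5 ran with Hspa8 at 0.82 (0.71 in controls). The r with Hspa8 was 0.38 for Hspa1a and 0.51 for Hspa1b over all animals, and -0.25 and 0.09 in controls. Cirbp ran against Hspa8 and Hsph1, with r of -0.73 for Hspa8 and -0.67 for Hsph1 over all animals and -0.88 and -0.91 in controls. Its r with Hspa1a was -0.30 over all animals and 0.04 in controls, with Hspa1b -0.40 and -0.36, and with Rbm3 0.67 and 0.62.

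Between times, the intruder libraries at 120 min lay above those at 30 min for most heat shock genes. Hspa5 rose in all 3 regions, by 0.49 ± 0.10, 0.51 ± 0.10 and 0.32 ± 0.08 on the log2 scale in amygdala, frontal cortex and hypothalamus (edgeR adjusted p 0.00217, 0.0013 and 0.0275). Hsph1 rose by 0.39 ± 0.09, 0.33 ± 0.08 and 0.41 ± 0.09 (edgeR adjusted p 0.00494, 0.00415 and 0.0165) and Hsp90aa1 by 0.18 ± 0.06, 0.23 ± 0.06 and 0.30 ± 0.07 (edgeR adjusted p 0.0315, 0.00588 and 0.0228). Hspa8 rose in frontal cortex, by 0.31 ± 0.06 (edgeR adjusted p 0.000708), where the intruder libraries read 1001 to 1056 CPM at 30 min and 1161 to 1331 CPM at 120 min. Its differences in amygdala (0.16 ± 0.06, from 1156 to 1291 CPM) and hypothalamus (0.22 ± 0.06, from 1284 to 1494 CPM) did not pass (edgeR adjusted p 0.0929 and 0.073), and whether the change in intruder libraries differed between regions was not tested for any of the 9 genes. Cirbp fell in amygdala, by 0.33 ± 0.10 on the log2 scale (edgeR adjusted p 0.0221), from 58.4 to 66.6 CPM at 30 min to 40.8 to 59.6 CPM at 120 min. Rbm3 fell in frontal cortex, by 0.24 ± 0.07 on the log2 scale (edgeR adjusted p 0.0138).

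Vessel markers moved over the same step. In intruder libraries the 6 endothelial markers summed to 182.9 to 222.6 CPM at 30 min and 101.0 to 148.3 CPM at 120 min in amygdala and to 171.5 to 187.3 and 96.0 to 149.7 CPM in hypothalamus, without overlap, and to 202.8 to 260.7 and 188.0 to 207.9 CPM in frontal cortex, with overlap. The 5 mural markers summed to 155.5 to 195.0 and 118.5 to 144.3 CPM in frontal cortex and to 122.9 to 127.0 and 61.3 to 85.4 CPM in hypothalamus, without overlap, and to 138.2 to 149.8 and 86.0 to 138.5 CPM in amygdala, with overlap. In hypothalamus 5 thalamus markers also stood apart, at 338.6 to 385.9 CPM at 30 min and 386.0 to 626.0 CPM at 120 min. The other lists overlapped between these times in each region, no marker of the 3 lists was at 0 in a group, and their part in the step was not tested.

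Taking amygdala, frontal cortex and hypothalamus in turn, 4, 5 and 3 of the 9 genes were called in this step, against 15.0%, 17.7% and 1.93% of all genes. In controls the same step gave 0, 1 and 0 called, against 0.145%, 4.42% and 0.175% of all genes, the 1 being Rbm3 in frontal cortex (-0.24 ± 0.07, edgeR adjusted p 0.0337), which was lost in 7 of 32 fits that left out 1 library. Of the 9 genes in controls 0, 2 and 1 had an unadjusted p below 0.05, against 7.51%, 20.2% and 10.2% of all genes, and DESeq2 and limma voom called the same counts as edgeR. The library index could be fitted as a block in amygdala, where the indexes of the 2 times were linked only through the 60 min library of control 1. That library was the lowest of its group for Hspa5 and Hsp90aa1 and the highest for Cirbp. In this fit the values of 3 of the 4 called genes changed sign, to -0.13 for Hspa5, -0.07 for Hsp90aa1 and 0.21 for Cirbp. Because the fit rests on that library, it cannot tell an effect of the index from that animal's own level. Hspa1a and Hspa1b were not called in this step with all libraries, and were called in all 3 regions without intruder animal 1 of 30 min. That animal had the highest values of both genes in its group and was singled out after they had been seen. Their log2 differences without it were 0.88 and 1.36 in amygdala, 0.92 and 1.04 in frontal cortex and 1.13 and 1.58 in hypothalamus (edgeR adjusted p 0.00379 to 0.0409). Over all genes these fits called 1644, 2174 and 254 in amygdala, frontal cortex and hypothalamus, against 2584, 3021 and 341 with all libraries. In hypothalamus all 3 calls of this step were lost without the 120 min library of intruder animal 1 or 3 or the 30 min library of intruder animal 2, and in amygdala 2 calls were left without the 120 min library of intruder animal 3 or 6.

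Frontal cortex differed between the times in controls as well. Rbm3 fell from 100.3 ± 4.28 CPM (SD, n = 5) at 30 min to 88.4 ± 7.22 CPM (n = 5) at 60 min and 84.8 ± 6.96 CPM (n = 6) at 120 min. Intruder libraries had 99.3 ± 10.3, 87.7 ± 6.74 and 84.2 ± 7.34 CPM at the same times. Hspa8 rose from 1083 ± 95.9 CPM at 30 min to 1223 ± 78.7 CPM at 60 min in controls (log2 difference 0.18 ± 0.06, edgeR adjusted p 0.0196) and from 1032 ± 26.7 to 1209 ± 80.3 CPM in intruder libraries (0.23 ± 0.06, edgeR adjusted p 0.00211). From 30 to 60 min 2 of the 9 genes were called in each condition, against 35.4% of all genes in controls and 45.5% in intruder libraries, so these genes were not called more often than others. Markers of other cells moved between the same times. In controls the summed level of 6 oligodendrocyte markers was 2815 to 3603 CPM at 30 min and 4085 to 6399 CPM at 60 min, that of 5 blood markers 70.4 to 101.8 and 112.1 to 138.0 CPM, and that of 5 mural cell markers 156.1 to 186.5 and 94.6 to 134.6 CPM, with no marker at 0 in all libraries. The intruder libraries were also apart for these 3 lists (2216 to 3721 and 3904 to 5781, 62.1 to 98.8 and 102.1 to 168.7, and 155.5 to 195.0 and 122.7 to 144.2 CPM). Also apart were 5 cortex markers in controls (1558 to 1679 and 1714 to 1853 CPM) and 5 astrocyte markers in intruder libraries (1064 to 1209 and 944.4 to 1061 CPM). The part of these markers in the differences of Hspa8 and Rbm3 was not tested. From 60 to 120 min in intruder libraries 3 were called, against 22.9% of all genes: Hspa5 (0.29 ± 0.10), Hsph1 (0.35 ± 0.08) and Cirbp (-0.31 ± 0.08). With the library index as a block 0 of the 9 were called, and 0 of all genes against 3914 without it, with Hspa5 at 0.07, Hsph1 at 0.23 and Cirbp at -0.18 (edgeR adjusted p 0.838, 0.287 and 0.446). A test over all 3 times in controls called 2 of the 9 in frontal cortex (Hspa8 and Rbm3, against 33.4% of all genes). It called 0 in amygdala (0.232%) and hypothalamus (0.181%), with 0 at an unadjusted p below 0.05 and 0 by DESeq2 or limma voom.

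Other genes of the folding pathways were read from lists of cytosolic and endoplasmic reticulum chaperones, chosen with earlier results of these data known. Among 27 further cytosolic chaperones and cochaperones tested, edgeR called 2 at 120 min against controls in amygdala, both higher, where 0.295% of all genes were called higher. They were Chordc1, a partner of Hsp90 (108.6 ± 14.9 against 84.3 ± 2.64 CPM, n = 5 each, log2 difference 0.36 ± 0.08, adjusted p 0.0333), and St13, which assists Hsp70 (193.1 ± 11.8 against 167.1 ± 7.54 CPM, 0.21 ± 0.05, adjusted p 0.0378). Over amygdala, frontal cortex and hypothalamus the list's median log2 difference was 0.15, 0.12 and 0.19, with 20, 23 and 24 of 27 above 0 and 18, 11 and 16 at an unadjusted p below 0.05. Of all genes 15.1%, 5.34% and 11.5% had such a p, and their medians were 0.000718, -0.00205 and 0.00252. Of 23 genes of endoplasmic reticulum folding and the unfolded protein response, 2 were called in amygdala, both higher. They were Canx, the lectin chaperone calnexin (469.6 ± 19.6 against 409.3 ± 11.7 CPM, 0.20 ± 0.04, adjusted p 0.02), and Dnajc3, a cochaperone of Hspa5 (100.3 ± 7.32 against 80.8 ± 4.21 CPM, 0.31 ± 0.06, adjusted p 0.0248). Of that list 22, 22 and 20 of 23 lay above 0 in amygdala, frontal cortex and hypothalamus, with medians of 0.15, 0.16 and 0.10 and 13, 16 and 8 at an unadjusted p below 0.05. These too stand against the shares and medians of all genes just given. All 4 calls were lost with no filter on low counts (edgeR adjusted p 0.0541 to 0.072) and with the 2 groups alone (0.185 to 0.211), and held under DESeq2 and limma voom. The library index as a block sets intruder animal 6 alone against the controls. It gave log2 differences of 0.51 for Chordc1, 0.28 for St13, 0.25 for Canx and 0.41 for Dnajc3. By edgeR 0 genes of either list were called in frontal cortex or hypothalamus.

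From 30 to 120 min in intruder libraries more of them passed. The cytosolic list had 7 higher and 1 lower in amygdala (the lower being Stub1, a ubiquitin ligase that works with chaperones), 13 higher in frontal cortex, led by Fkbp4 (0.39 ± 0.06) and Stip1 (0.39 ± 0.06), and 3 higher in hypothalamus. The endoplasmic reticulum list had 16, 15 and 7 higher, with Pdia4, a disulfide isomerase, among the leading genes in each region (log2 difference 0.60 ± 0.11, 0.60 ± 0.10 and 0.41 ± 0.09). Of all genes, 8.86%, 9.02% and 0.967% were called higher in this step, and 6.09% in amygdala and 8.66% in frontal cortex lower. With the library index as a block, a fit that rests in this step on the 60 min amygdala library of control 1, Pdia4 was at -0.05 in amygdala. In controls the step called 0 genes of either list in each region, with at most 6 of 27 (frontal cortex, against 20.2% of all genes) and 1 of 23 (amygdala, against 7.51%) at an unadjusted p below 0.05. Of 7 mitochondrial chaperones and proteases 1 was called, Hspe1 in frontal cortex (0.24 ± 0.07). Among the heat shock factors Hsf1, Hsf2, Hsf4 and Hsbp1, Hsf1 (-0.20 ± 0.06) and Hsf4 (-0.23 ± 0.07) fell in amygdala. At 120 min 0 of the 4 were called against controls. In amygdala, frontal cortex and hypothalamus 1, 0 and 1 had an unadjusted p below 0.05, against 15.1%, 5.34% and 11.5% of all genes.

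A list of 7 genes linked to temperature, chiefly kinases and splicing factors of the SR family, was read beside Cirbp and Rbm3. At 120 min 1 of 7 passed the test between intruder and control libraries, Srsf5 in hypothalamus, at 315.5 ± 24.2 against 368.5 ± 9.29 CPM (log2 difference -0.22 ± 0.05, edgeR adjusted p 0.0443), where 0.170% of all genes were called lower. This call was lost under upper-quartile scaling (edgeR adjusted p 0.0545), with no filter (0.0664), with the replicate number (0.0657) or the library index (0.109) as a block and with the 2 groups alone (0.512), and held under DESeq2 and limma voom. In frontal cortex from 30 to 120 min, 2 of the 7 fell in controls, Clk4, a splicing kinase, and Srsf2 (by 0.32 ± 0.07 and 0.23 ± 0.06 on the log2 scale), where 2.48% of all genes were called lower. In intruder libraries 3 fell there, Clk4, Srsf2 and Srsf5 (by 0.30 ± 0.07, 0.23 ± 0.06 and 0.22 ± 0.06 on the log2 scale), against the 8.66% of all genes called lower. In amygdala 1 fell in intruder libraries, Srsf5 (by 0.23 ± 0.07 on the log2 scale), against 6.09%. Its direction turned with the library index as a block (0.11), a fit that rests here on the 60 min library of control 1.

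Between regions, in controls, Cirbp and Rbm3 ran in opposite order. Cirbp was highest in hypothalamus, at 68.5 ± 6.16 CPM (SD, n = 13), then amygdala at 55.2 ± 6.31 CPM (n = 15) and frontal cortex at 41.9 ± 4.63 CPM (n = 16). Hypothalamus libraries (58.6 to 80.4 CPM) did not overlap those of frontal cortex (33.9 to 54.3 CPM). How many of all genes stood apart in this way was not counted, and 81.9% of them were called between these regions. Each step passed the test, with log2 differences of 0.71 ± 0.06 between hypothalamus and frontal cortex, 0.40 ± 0.06 between amygdala and frontal cortex and 0.31 ± 0.06 between hypothalamus and amygdala (edgeR adjusted p at most 3.62e-06). Rbm3 was highest in frontal cortex, at 96.6 ± 9.33 CPM, then amygdala at 88.1 ± 11.1 CPM and hypothalamus at 72.4 ± 5.53 CPM. Its log2 differences for the same pairs were -0.42 ± 0.05, -0.14 ± 0.05 and -0.28 ± 0.05 (edgeR adjusted p at most 0.0119).

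Among the heat shock genes, Hspa5, Hsp90aa1 and Hsph1 were higher in hypothalamus, at 494.7 ± 35.5, 961.1 ± 60.6 and 457.1 ± 31.7 CPM, than in frontal cortex, at 396.5 ± 46.8, 829.1 ± 57.3 and 404.3 ± 32.8 CPM. Those differences were 0.32 ± 0.06, 0.22 ± 0.04 and 0.19 ± 0.05 in log2 (edgeR adjusted p at most 0.00125), and the 3 genes were also called between hypothalamus and amygdala. Hspa1a was called between hypothalamus and frontal cortex, at 13.1 ± 3.80 against 10.1 ± 2.34 CPM (0.42, edgeR adjusted p 0.0474), a call lost with no filter on low counts (edgeR adjusted p 0.0628), under limma voom (adjusted p 0.0556) and in 23 of 36 fits that left out 1 library. Its near-identical copy Hspa1b ran the other way, at 11.6 ± 4.07 against 15.0 ± 3.42 CPM (-0.34, edgeR adjusted p 0.134), and the reads of both genes summed gave 0.01 (edgeR adjusted p 0.951). By edgeR with TMM scaling, the filter on low counts and no animal block, no heat shock gene was called between amygdala and frontal cortex. In that fit Hspa8, Dnajb1 and Hspa1b were called between no pair of regions, with Hspa8 at 1187 ± 74.4, 1237 ± 109.2 and 1225 ± 75.8 CPM in amygdala, frontal cortex and hypothalamus. Upper-quartile scaling called Hspa5 between amygdala and frontal cortex (0.13, edgeR adjusted p 0.0398). In all, 6 of the 9 genes were called between hypothalamus and frontal cortex, 5 between hypothalamus and amygdala and 2 between amygdala and frontal cortex, against 81.9%, 72.3% and 67.6% of all genes, so a call between regions was no more frequent here than elsewhere. With the animal as a block, which the animal labels allow, 7, 7 and 5 of the 9 were called, against 81.8%, 72.6% and 68.2% of all genes. Between amygdala and frontal cortex these added Hspa5 (0.12, edgeR adjusted p 1.76e-05), Dnajb1 (-0.09, edgeR adjusted p 0.0361) and Hspa1b (-0.29, edgeR adjusted p 0.000129). Hspa1b was also added between hypothalamus and frontal cortex (-0.39, edgeR adjusted p 3.33e-06), and Hspa1a (0.42, edgeR adjusted p 1.62e-09) and Dnajb1 (0.18, edgeR adjusted p 0.000252) between hypothalamus and amygdala. Between hypothalamus and amygdala upper-quartile scaling called 8 and DESeq2 7, so Hspa8, Dnajb1 and Hspa1b were not all uncalled there in those fits. Whether controls changed with time differently in the regions passed the test for 0 of the 9 genes (18.4% of all genes; 0 at an unadjusted p below 0.05, 0 by DESeq2 and limma voom), and with the animal as a block for 4, Hspa1a, Hspa8, Hspa5 and Cirbp (edgeR adjusted p 0.00943 to 0.032), against 22.1% of all genes.

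**Figure D5:**
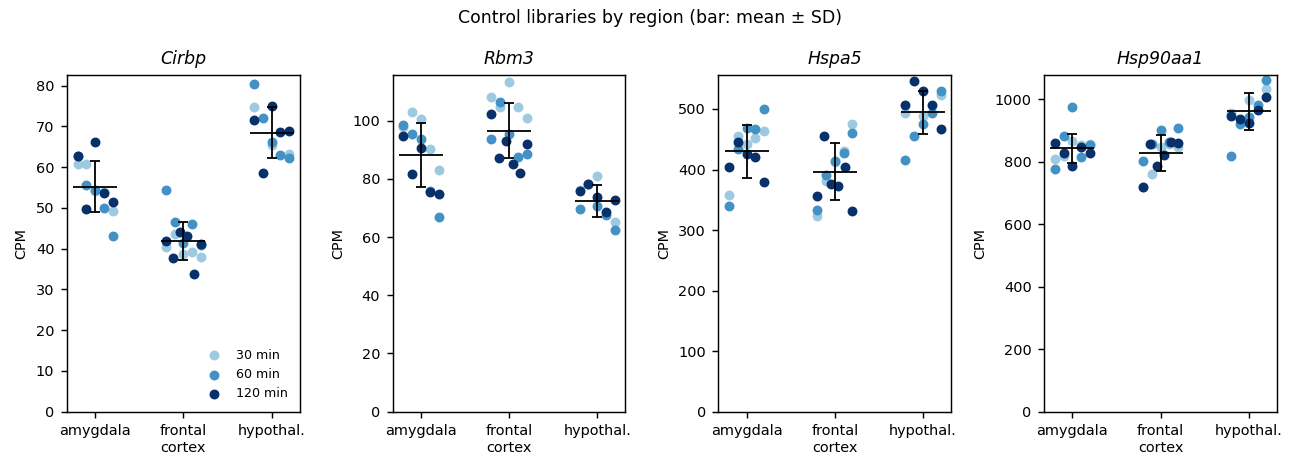
CPM of Cirbp, Rbm3, Hspa5 and Hsp90aa1 in the control libraries of amygdala (n = 15), frontal cortex (n = 16) and hypothalamus (n = 13), with points shaded by time and bars for the mean and SD, on a scale common to all libraries. Cirbp climbs from frontal cortex through amygdala to hypothalamus while Rbm3 descends in that order.

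Genes whose pattern was most like each of the 9 were sought by Pearson's r of log2(CPM + 1) over the 90 libraries after subtracting group means, which share animals between regions. For Hspa1a these were Hspa1b (0.94), Dnajb1 (0.89) and Ccdc117 (0.89), and for Hspa1b, beside Hspa1a and Dnajb1, Dedd2 (0.80). Hspa8 lay nearest to Stip1 (0.93), Hsp90aa1 to Dnaja1 (0.93), Hsph1 to P4ha1 (0.87) and Hspa5 to Pdia4 (0.94), Pdia3 (0.90) and Hsp90b1 (0.90). The nearest neighbours of the cold-inducible genes were looser, with Galns (0.70), Chid1 (0.66) and Sat2 (0.65) for Cirbp and Armcx5 (0.65), Cirbp (0.64) and the clock gene Nr1d1 (0.64) for Rbm3. Over the 18 group means instead, Hspa1a lay nearest to Dnajb1 (0.92), Hspa5 to Pdia6 (0.94), Cirbp to BC017158 (0.98) and Rbm3 to Egr2 (0.95).

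Markers of vessel cells moved with the intruder groups at 120 min in hypothalamus. In bulk tissue, fewer cells of a type and less RNA per cell cannot be told apart. The 6 endothelial markers summed to 96.0 to 149.7 CPM in intruder libraries and 156.6 to 179.2 CPM in controls, and the 5 mural markers to 61.3 to 85.4 against 110.7 to 128.7 CPM, with no overlap in either. In amygdala the endothelial sums were 101.0 to 148.3 against 113.3 to 202.6 CPM, and in frontal cortex 188.0 to 207.9 against 169.6 to 224.7 CPM, with overlap. No marker of either list was at 0 in a group. The endothelial sums of intruder animals 1, 2, 3, 4 and 6 in hypothalamus were 96.0, 100.7, 149.7, 114.5 and 141.6 CPM. Lowest were animal 1, which had the highest Hspa1a there, and animal 2, whose heat shock genes were at control level. The part of the vessel markers in the heat shock values was not tested.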

How the data were processed

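RNA of amygdala, frontal cortex and hypothalamus was measured in 90 libraries of 32 male mice. The deposited table holds raw counts per gene, made by the authors with CASAVA 1.8.2, TopHat2 2.0.8 and HTSeq 0.6.1 on build NCBIM37, per the submitters' processing notes. Single-end stranded poly(A) libraries were made from Trizol-extracted RNA, per the labels' protocols. The 5 rows that name no gene were left out (8.63 to 14.46% of reads lay outside genes). The design text also speaks of RNA pooled for sequencing, while the labels give 1 animal per library, so p-values measure the spread between animals as labelled.

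Symbols came from Gencode M21. Counts were scaled by TMM, filtered with filterByExpr and tested by edgeR 4.0.16's quasi-likelihood test (R 4.3.3) with Benjamini-Hochberg adjustment over all genes, 17277, 17091 and 17676 (amygdala, frontal cortex, hypothalamus), with the 6 groups of a region in 1 fit. A gene was called at an adjusted p below 0.05. Comparisons of regions used 1 fit of 18 groups (18337 genes). The edgeR fit without a block was first tested on data simulated from the amygdala libraries, and the other fits were not. Alternatives were DESeq2 1.42.0, limma voom 3.58.1, upper-quartile scaling, no filter on low counts, blocks by replicate number, library index or animal, 2 groups alone, Hspa1a and Hspa1b summed, and leaving out libraries.

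The 9 genes and the lists were chosen with earlier results of these data known. All 9 were named throughout; of each list up to 3 called genes per direction with the smallest adjusted p, and for each of the 9 the 3 genes most alike. Within a time and condition, libraries of the same number in the 3 regions were taken as 1 animal. Between conditions, same-numbered libraries correlated from -0.503 to 0.557 and were not treated as pairs. Means per animal, correlations between regions and the search for a pair of heat shock units were added after the data had been seen.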

Additional observations from a re-analysis of the deposited data

Results flagged for a closer look

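Of 153 groups of 4 to 6 libraries in which the highest and lowest value of each of the 9 genes were tested against the rest (Dixon's criterion), 13 had a library that stood apart, where about 8 are met by chance at 1 in 20.

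Intruder animal 1 at 30 min gave 6 of the 13. Its Hspa1a was at 29.4 CPM in amygdala, 22.3 CPM in frontal cortex and 43.7 CPM in hypothalamus, and its Hspa1b at 32.4, 29.8 and 38.0 CPM in the same order. These were 2.59 to 3.98 times the median of the other 4 animals, so the value appeared in 3 libraries prepared from separate tissue. The reason was not tested.

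The other 7 were spread over the genes. Hspa1b was high in frontal cortex of control animal 2 at 120 min (15.1 CPM, the others at most 11.5), and so was Hsph1 in its hypothalamus (537.3 CPM, the others at most 473.8). Intruder animal 2 at 30 min had a low Hspa8 in hypothalamus (1187 CPM, the others at least 1287) and a high Rbm3 in frontal cortex (117.7 CPM, the others at most 96.4). Intruder animal 2 at 120 min, the one whose heat shock genes stayed among the controls, had a high Rbm3 in frontal cortex (98.4 CPM, the others at most 84.6). Hspa5 was low in amygdala of control animal 1 at 30 min (356.3 CPM, the others at least 439.9). Cirbp was low in amygdala of intruder animal 5 at 60 min (47.8 CPM, the others at least 56.3).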

How the results depend on the processing

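Of the 9 genes' values under alternatives, 14302 kept their side of the threshold, 148 lost it, 71 gained it and 3 called ones changed sign. Among values called in neither fit, those of other named genes included, 352 changed sign, at sizes of up to 0.636 in log2. For amygdala at 120 min against controls (1 gene called), no filter on low counts, limma voom and 2 groups alone called 0, and DESeq2 and the replicate block 2. The index block sets intruder animal 6 alone against the controls there, so its calls are not given. The block by replicate number otherwise moved a count by over 1.5 times in no comparison; it called 3 rather than 2 from 30 to 60 min in frontal cortex controls. For the effect between times in amygdala, DESeq2 called 1 rather than 0. In amygdala intruder libraries from 30 to 120 min the index block rested on the 60 min library of control 1. There it turned Hspa5 (-0.13), Hsp90aa1 (-0.066), Cirbp (0.21), Hspa4 (-0.00060), Pdia4 (-0.051) and Srsf5 (0.11). The index block called 0 in frontal cortex intruder libraries from 60 to 120 min (3 otherwise). It could not be fitted for frontal cortex at 120 min and for most comparisons between times in frontal cortex and hypothalamus. Frontal cortex controls from 30 to 60 min had 1 called under upper-quartile scaling and without a filter (2 otherwise), and across all times 1 without a filter (2 otherwise). With the animal as a block, 5 rather than 2 were called between amygdala and frontal cortex and 4 rather than 0 for time between regions. Upper-quartile scaling called 8 rather than 5 between hypothalamus and amygdala, and moved the median of all genes between hypothalamus and frontal cortex from 0.02 to 0.09. The causes of these shifts were not tested.

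Leaving out 1 library gave 0 to 2 genes called at 120 min in amygdala and in hypothalamus and 0 to 4 in frontal cortex. From 30 to 120 min in intruder libraries it gave 2 to 5 in amygdala, 4 to 8 in frontal cortex (8 without intruder animal 1 of 30 min) and 0 to 4 in hypothalamus. From 30 to 60 min in frontal cortex it gave 0 to 2 in controls (0 without control 1 of 30 min) and 1 to 4 in intruder libraries. In frontal cortex controls it gave 0 to 1 from 30 to 120 min and 1 to 2 across the times, and in hypothalamus intruder libraries from 60 to 120 min 0 to 1. Over all genes, 93 were called in amygdala at 120 min, against 413 by DESeq2, 254 with the replicate block, 12 without a filter and 0 with 2 groups alone. In hypothalamus at 120 min 34 were called, against 90 by DESeq2 and 0 with 2 groups alone. Each value of the 9 genes rested on at least 301 reads, so counting error was smaller than the spread between animals.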
